A study of Mus musculus with 6 samples.

Results

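The enzymes that write, copy and oxidize DNA methylation, together with the histone demethylase Kdm6b, were followed in dorsal midbrain of embryos that lose Ezh2. The set comprised all probe sets that the platform annotation assigns to Dnmt1, Uhrf1, Dnmt3a, Dnmt3b, Tet1, Tet2, Tet3 or Kdm6b and to no other gene. It held 22 of the 45037 probe sets tested and 8 of the 18193 genes with a probe set of their own. RNA was taken from C57BL/6 mouse embryos at embryonic day 10.5, and each sample was hybridised to 1 array. The 3 Ezh2 cko (conditional knockout) samples carried Wnt1-Cre and loxP sites flanking the SET domain region of Ezh2. The 3 control samples are labelled wild type, whereas the methods describe control littermates that carried either the floxed alleles without Cre or Cre with 1 wild-type Ezh2 allele. Wnt1-Cre is active in the dorsal midbrain and in neural crest, and the study describes cells without recombination in the rostral midbrain at a later stage; how many cells of the array tissue kept Ezh2 was not measured here. By the methods 2 litters made up each group, and no label ties a sample to a litter.

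Methyl groups are placed on cytosines of CpG dinucleotides by Dnmt3a and Dnmt3b (de novo methylation) and are copied to the new strand after replication by Dnmt1, which Uhrf1 brings to hemimethylated DNA. Tet1, Tet2 and Tet3 oxidize 5-methylcytosine, which opens a route to its removal. Ezh2 is the catalytic subunit of Polycomb repressive complex 2 and methylates histone H3 at H3K27, and Kdm6b (Jmjd3) removes that mark.

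The CpG dinucleotide is the substrate of the methylating enzymes, and several of their own promoters are rich in it. RefSeq windows on GRCm38.p6, from 250 bases before to 50 bases after a transcription start, were at hand for 7 of the 8 genes, 12 windows in all, and none was found for Kdm6b. The median of all 32851 windows was 7 CpG. The Tet2 window held 57 CpG, those of the first and second Dnmt3a starts 46 and 47, and that of the last Dnmt3a start 18. The first Dnmt1 start had 2, the second 12 and the last 33. The stretches before the first Dnmt1 start (chr9:20959889-20960008, minus strand) and before the first (chr12:3806860-3806979) and last (chr12:3891624-3891743) Dnmt3a starts, both on the plus strand, show this range. Dnmt3a is shown because its probe sets differed from each other, and the arrays do not tell which start was used. Capitals mark CpG.
Dnmt1 first start: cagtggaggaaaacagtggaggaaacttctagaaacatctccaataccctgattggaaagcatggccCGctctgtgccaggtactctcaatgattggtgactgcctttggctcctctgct
Dnmt3a first start: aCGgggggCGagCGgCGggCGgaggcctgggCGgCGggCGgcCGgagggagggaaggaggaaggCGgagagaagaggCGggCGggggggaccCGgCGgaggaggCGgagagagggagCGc
Dnmt3a last start: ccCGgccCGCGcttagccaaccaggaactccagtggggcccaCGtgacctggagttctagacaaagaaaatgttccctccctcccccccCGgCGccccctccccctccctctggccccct

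Dnmt1 and Uhrf1 act at the replication fork, so the windows were also searched on both strands for 3 E2F-type motifs, TTTCGCGC, TTTGGCGC and TTTCCCGC, which resemble the site of the factors that govern S-phase genes. Any of them was present in 1.84% of all windows and in 2 of the 12 member windows, those of the second Uhrf1 start and the last Dnmt1 start. The motif letters were chosen with the member windows in view, so setting these shares side by side is not a test. The Uhrf1 match lay 185 bases before the start (chr17:56304117-56304146, plus strand), and one of the Dnmt1 matches began 33 bases after it (chr9:20952574-20952601, minus strand). The other Dnmt1 match, TTTCGCGC on the opposite strand, did not overlap it. Capitals mark the matched letters, and a match is a description of the sequence only.
Uhrf1 second start: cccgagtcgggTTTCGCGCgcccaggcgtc
Dnmt1 last start: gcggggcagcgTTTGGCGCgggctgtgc

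Ezh2 itself was read on its brightest probe set (1416544_at). Its log2 signals were 11.69, 11.76 and 11.66 in the controls, against 11.79, 11.74 and 11.72 in the Ezh2 cko. Whether its probes lie in the deleted part is not given in the sources used here, so it checks neither the labels nor the deletion. Across the series, 83 probe sets were higher and 2 lower in the Ezh2 cko at a limma Benjamini-Hochberg adjusted p under 0.05, and the median log2 difference of all genes was -0.02. Of the markers of the labelled tissue, all 10 midbrain genes and all 10 neural progenitor genes listed had a probe set. The array design fixes this, so it does not check the tissue. A pair of arrays stood apart. Ezh2 cko replicate 3 lay more than 0.5 log2 units beyond all other arrays on 156 probe sets above and 60 below, and control replicate 1 on 23 above and 170 below. The median deviation of 16 neuron markers from their mean over all arrays stood at -0.46, -0.03 and -0.01 on the control arrays, against -0.08, 0.17 and 0.41 on those of the Ezh2 cko.

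None of the 22 member probe sets passed an adjusted p of 0.05 in limma, where 0.189% of all probe sets did (for genes represented by 1 probe set each, 0.302%). Their log2 differences, Ezh2 cko minus control, ran from -0.29 to 0.33 with a median of -0.04, and the adjusted p from 0.570 to 0.999. Of the 22, 9 were positive and 13 negative, where 56.9% of all probe sets were negative. An unadjusted p under 0.05 was reached by 1 of the 22, against 7.55% of all probe sets, and the thresholds of the methods (at least 1.75-fold and p of at most 0.01) by 0, against 0.260%. All Ezh2 cko arrays lay above all controls on 2 member probe sets and below them on 2, while the corresponding shares of all probe sets were 5.72% and 7.27%. The 95% confidence intervals of 15 of the 22 lay within 0.5 log2 units of 0. Taken over all 22, the intervals reached from -0.78 to 0.82, that is from 0.582-fold to 1.77-fold.

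**Figure D1:**
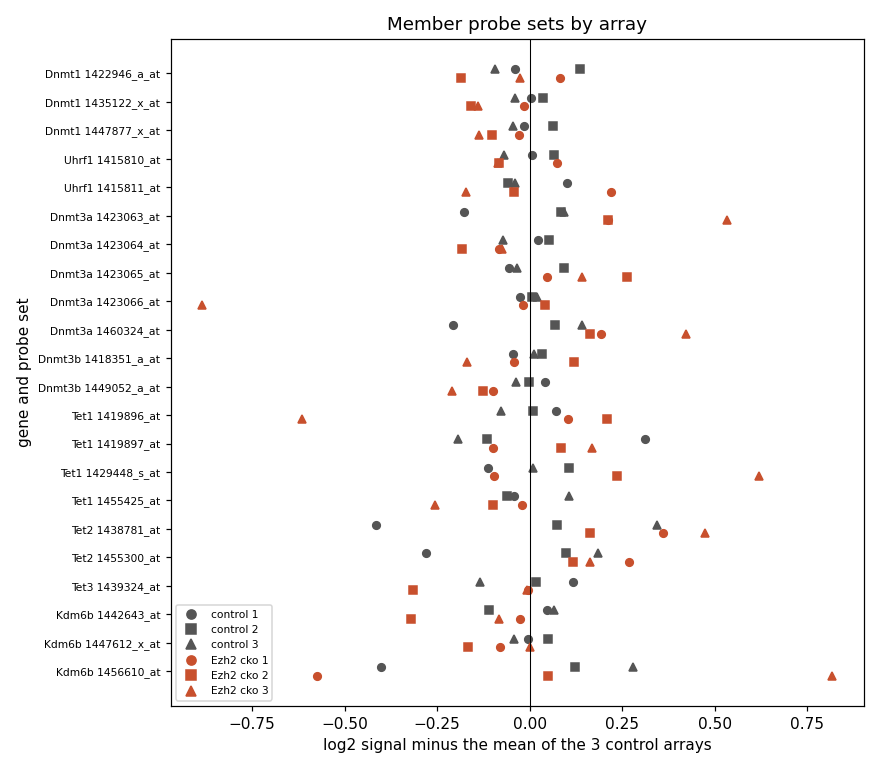
Log2 signal of each of the 22 member probe sets on each array, minus the mean of the 3 control arrays (horizontal axis). Grey symbols are controls, orange symbols Ezh2 cko, and the shape gives the replicate number. Most values lie near 0, and the most distant points belong to Ezh2 cko replicate 3.

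Dnmt1, the maintenance methyltransferase, gave near-equal signals in both groups on each of its 3 probe sets. On the brightest one (1435122_x_at) the controls read 11.98, 12.02 and 11.94 and the Ezh2 cko 11.96, 11.82 and 11.84. The groups overlapped, and the difference was -0.11 (SE 0.0767, limma adjusted p = 0.816). The other probe sets differed by -0.04 (1422946_a_at) and -0.09 (1447877_x_at), with adjusted p-values from limma of 0.953 and 0.846. Over the 3 probe sets the intervals reached from -0.28 to 0.18.

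Uhrf1, the partner that recruits Dnmt1, was as close. Probe set 1415810_at read 12.69, 12.75 and 12.62 in controls and 12.76, 12.60 and 12.60 in the Ezh2 cko, a difference of -0.03 (SE 0.0820, limma adjusted p = 0.960). Its second probe set, 1415811_at, differed by 0.00 (limma adjusted p = 0.999). Controls and Ezh2 cko overlapped on both.

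Dnmt3a, a de novo methyltransferase, was represented by 5 probe sets that did not move together. On 1423063_at the controls read 8.92, 9.18 and 9.19 and the Ezh2 cko 9.31, 9.31 and 9.63. All Ezh2 cko arrays were above all controls, by 0.32 on average (SE 0.117), with an unadjusted p of 0.025 and an adjusted p of 0.570 in limma, and without Ezh2 cko replicate 3 the difference was 0.21. Probe set 1460324_at showed the same order, with controls at 8.28, 8.56 and 8.63 and Ezh2 cko at 8.68, 8.66 and 8.91 (difference 0.26, limma adjusted p = 0.671). Without control replicate 1 this difference was 0.15. On 1423064_at the order was the opposite: the controls read 9.37, 9.40 and 9.27, the Ezh2 cko 9.26, 9.16 and 9.27, and the highest Ezh2 cko array (9.271) lay just under the lowest control (9.273) (difference -0.11, limma adjusted p = 0.798). The brightest probe set, 1423066_at, read 9.62, 9.65 and 9.66 in the controls, against 9.62, 9.68 and 8.76 in the Ezh2 cko. Its difference of -0.29 (limma adjusted p = 0.822) rests on Ezh2 cko replicate 3, and without that array it was 0.01. The remaining probe set, 1423065_at, differed by 0.15 (limma adjusted p = 0.762) with overlapping groups, and by 0.0937 without Ezh2 cko replicate 2. Over the 6 arrays, 1423063_at and 1460324_at varied together (Pearson r = 0.980) whereas 1423063_at and 1423066_at varied in opposite ways (r = -0.764), as a description over arrays of the same 6 samples. On these arrays the direction given for Dnmt3a therefore depends on the probe set read.

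**Figure D2:**
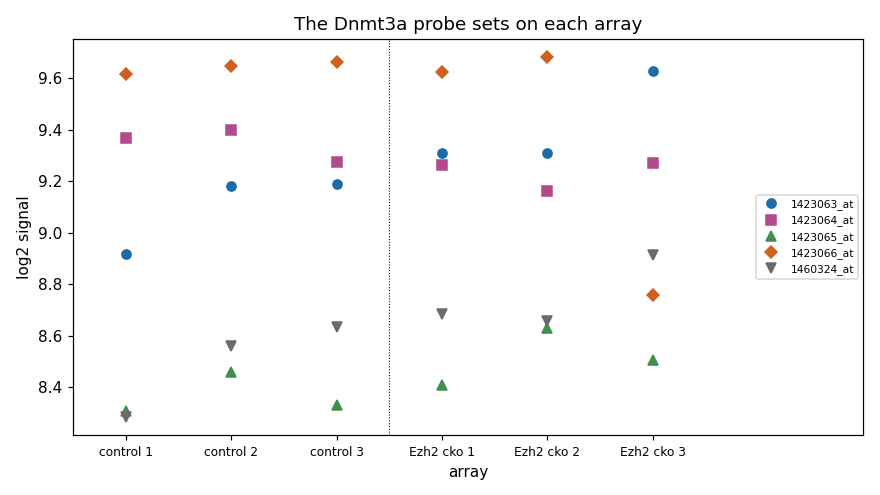
Log2 signal (vertical axis) of the 5 Dnmt3a probe sets on the 3 control and 3 Ezh2 cko arrays, one symbol per probe set. On Ezh2 cko replicate 3, 1423066_at lies at 8.76 while 1423063_at lies at 9.63; levels of different probe sets are not comparable.

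Dnmt3b, the other de novo methyltransferase, had 2 probe sets. On 1449052_a_at the controls read 9.99, 9.95 and 9.91 and the Ezh2 cko 9.85, 9.82 and 9.74, so that all Ezh2 cko arrays lay below all controls. The difference of -0.14 (SE 0.0740) did not pass the test (limma adjusted p = 0.726), and its interval ran from -0.31 to 0.02. The second probe set, 1418351_a_at, differed by -0.03 (limma adjusted p = 0.969), with overlapping groups.

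The Tet oxidases showed no difference past the threshold on any of 7 probe sets. For Tet1 the brightest probe set, 1455425_at, read 8.851, 8.832 and 8.999 in controls and 8.873, 8.795 and 8.637 in the Ezh2 cko (difference -0.13, limma adjusted p = 0.816). Probe set 1429448_s_at read 7.34, 7.56 and 7.47 against 7.36, 7.69 and 8.08 (difference 0.25, limma adjusted p = 0.792), and 1419896_at read 6.59, 6.53 and 6.44 against 6.63, 6.73 and 5.90 (difference -0.10, limma adjusted p = 0.943). The widest departures on both came from Ezh2 cko replicate 3, in opposite directions, and without it the differences were 0.0687 and 0.16, and -0.0598 for 1455425_at. The dimmest, 1419897_at, differed by 0.05 (limma adjusted p = 0.963).

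Tet2 read 7.84, 8.22 and 8.31 in the controls, against 8.39, 8.24 and 8.28 in the Ezh2 cko on 1455300_at (difference 0.18, limma adjusted p = 0.801). On 1438781_at, a dimmer probe set, the controls read 5.22, 5.71 and 5.98 and the Ezh2 cko 6.00, 5.80 and 6.11 (difference 0.33, limma adjusted p = 0.745). Control replicate 1 was the lowest array on both, and the groups overlapped on both. Without it the differences were 0.0407 for 1455300_at and 0.12 for 1438781_at; without control replicate 3 they were 0.27 and 0.50. Tet3 had a single dim probe set, 1439324_at, at 5.32, 5.22 and 5.07 in controls and 5.20, 4.89 and 5.20 in the Ezh2 cko (difference -0.11, limma adjusted p = 0.873), and without Ezh2 cko replicate 2 the difference was -0.00595.

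Kdm6b, which removes the mark that Ezh2 places, likewise did not pass the test on any of 3 probe sets. The brightest, 1447612_x_at, read 9.86, 9.91 and 9.82 in the controls, against 9.78, 9.70 and 9.87 in the Ezh2 cko, a difference of -0.08 (SE 0.0785, limma adjusted p = 0.863) with an interval from -0.26 to 0.10. The dim 1442643_at differed by -0.14 (limma adjusted p = 0.806), and by -0.0548 without Ezh2 cko replicate 2. Probe set 1456610_at varied most of all members, with 7.97, 8.50 and 8.65 in controls and 7.80, 8.42 and 9.19 in the Ezh2 cko (difference 0.10, SE 0.318, limma adjusted p = 0.972). The order of the arrays within each group was the same on an array control probe set for 18S ribosomal RNA (3′ set), at 9.74, 10.03 and 10.78 in the controls, against 9.36, 9.66 and 11.20 in the Ezh2 cko. The neuron marker medians given above had this order too. The part of ribosomal RNA or of cell content in the 1456610_at signal was not tested. One more probe set, 1440346_at, is annotated to Kdm6b and 1700064E03Rik together and was not counted; it differed by -0.13 (limma adjusted p = 0.825).

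**Figure D3:**
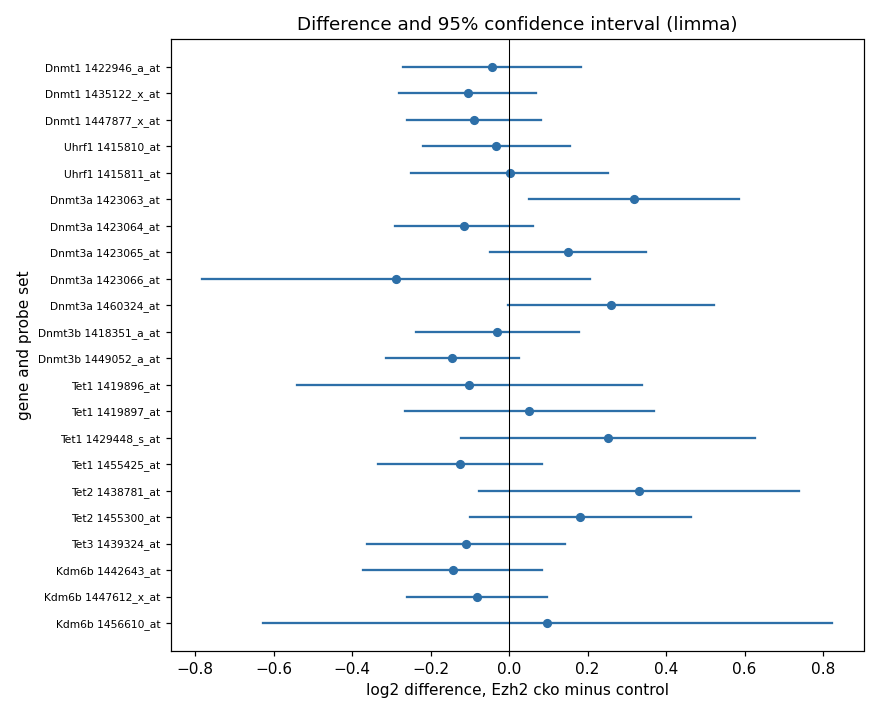
Log2 difference, Ezh2 cko minus control, for each member probe set (points) with its 95% confidence interval from limma (lines; 3 arrays per group). The points run from -0.29 to 0.33, and only the interval of Dnmt3a 1423063_at leaves out 0, with an adjusted p of 0.570.

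For each gene the brightest probe set was also set against 11385 other genes with a mean log2 signal of at least 6, and the gene with the most similar profile over the 6 arrays was Ttc7b for Dnmt1 (r = 0.993), Ptbp1 for Uhrf1 (r = 0.9996) and Fzd3 for Dnmt3a (r = 0.996). It was Ung for Dnmt3b (r = 0.998), Tro for Tet1 (r = 0.993), 2010315B03Rik for Tet2 (r = 0.987), Sort1 for Tet3 (r = 0.994) and Ppig for Kdm6b (r = 0.994). With 6 arrays and so many genes such values are a description of likeness only. Ung, which removes uracil from DNA, differed by -0.13 (limma adjusted p = 0.761).

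Of 116 genes in the 10 pathway lists, 0 passed the adjusted p in limma and 5 had an unadjusted p under 0.05 (4.31%, against 8.87% of all genes by 1 probe set each). None was called among the 10 cofactors of DNA methylation (median log2 difference -0.06), 8 methyl-CpG readers (0.01) and 8 CXXC proteins that bind unmethylated CpG (-0.05). Nor was any among 10 genes of the steps after Tet oxidation (-0.01) and 8 genes that make or use 2-oxoglutarate (-0.02). The cosubstrate of Tet and Kdm6 enzymes is 2-oxoglutarate. Over all genes the median was -0.02. The furthest cofactors were the imprint regulator Zfp57 (0.14) and Dppa3 (-0.12). Among the readers these were Mbd4, a thymine glycosylase that binds methylated CpG (0.41), and Zbtb4 (0.22). Among the CXXC proteins they were Kdm2a (-0.26) and Cxxc4 (-0.20), and after oxidation Gadd45g (0.24) and Gadd45a (-0.20). Of the 2-oxoglutarate genes they were Ogdh, whose enzyme uses 2-oxoglutarate (-0.08), and Idh1 (0.07). Several of these values moved with 1 array. Without Ezh2 cko replicate 2 Mbd4 was at 0.22, and without Ezh2 cko replicate 3 Kdm2a was at -0.10 and Zbtb4 at 0.0598. Gadd45a was at -0.0823 without control replicate 3, and Dppa3 at 0.0595 without control replicate 1. Other probe sets of the same gene ran from -0.06 to 0.08 for Mbd4 and from -0.08 to 0.20 for Zbtb4. For Kdm2a they ran from -0.23 to -0.0022, and for Cxxc4 from -0.38 to -0.14. The other probe set read 0.0035 for Ogdh and 0.17 for Idh1.

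The 10 genes listed on and around the S-adenosylmethionine cycle, which supplies the methyl groups, had 9 negative differences and a median of -0.11. None passed the test, and of all genes, 57.0% were negative. Srm, spermidine synthase, gave -0.21 (limma adjusted p = 0.712) and Mthfd1, of folate metabolism, -0.18 (limma adjusted p = 0.726; -0.12 without Ezh2 cko replicate 3). Among 17 relatives and partners of the H3K27 demethylases the median was -0.06, with 0 called, and the furthest were the H3K4 methyltransferase Kmt2d (-0.22, and -0.12 without Ezh2 cko replicate 2) and the X-linked Kdm5c (-0.17). Kdm6a (Utx), the X-linked relative of Kdm6b, read 10.11, 9.38 and 9.67 in controls and 9.61, 9.63 and 9.58 in the Ezh2 cko (difference -0.11, limma adjusted p = 0.921). Control replicate 1, the highest array, was also the one with Xist at 11.70 (5.13 to 5.36 on the other arrays) and Kdm5d, a Y-linked gene, at 3.03 (8.97 to 9.25 on the others). Kdm5c was also highest there, at 10.02. Without that array the Kdm6a difference was 0.08 and the Kdm5c difference -0.0984. The other Kmt2d probe set read -0.07. Other probe sets ran from -0.26 to 0.06 for Kdm5c and from -0.20 to 0.08 for Kdm6a.

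Of 15 listed germline genes that promoter methylation is known to silence, 0 passed the test and the median was -0.01. The germline genes Tex15 and Ddx43, which the study lists as higher in the Ezh2 cko, are not among these 15. Ddx4, an RNA helicase of germ cells, read 3.49, 4.02 and 3.79 in the controls, against 4.04, 4.13 and 4.05 in the Ezh2 cko (difference 0.31, limma adjusted p = 0.642), and Sycp3, of the synaptonemal complex, differed by 0.28 (limma adjusted p = 0.677). Both probe sets are dim. Without control replicate 1 these differences were 0.17 and 0.14, and without control replicate 2 they were 0.43 and 0.40. The 19 genes of proliferation and S phase had 17 negative differences with a median of -0.05 and none past the test. Furthest were Ccne1 at -0.19 (-0.10 without control replicate 1) and Cdc6 at -0.15. The other Ccne1 probe set differed by -0.38. In the immediate early and stress list, of 12 genes, 0 passed, and the heat shock genes Hspa1b (0.44) and Hspa1a (0.39) were furthest, with limma adjusted p-values of 0.306 and 0.303.

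**Figure D4:**
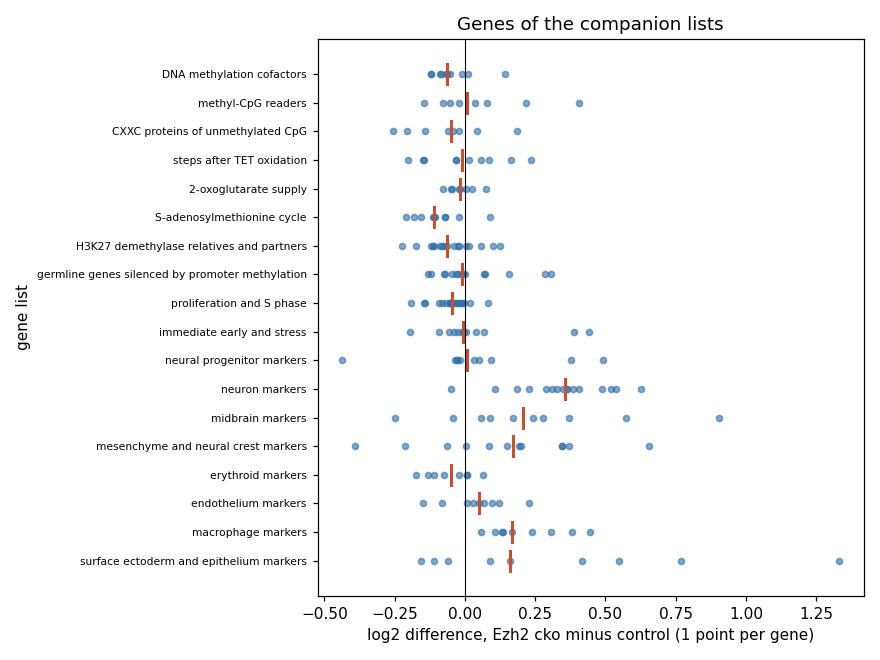
Log2 difference, Ezh2 cko minus control, of the genes of each companion list (blue points, 1 probe set per gene) with the list median (orange bar). The first 10 lists are pathway lists, where no gene passed the test; below them are cell type markers, where Epcam and Cdh1 lie at 1.33 and 0.77.

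The cell types that the dissected tissue can hold were followed by their markers. Of 16 neuron markers 15 were positive (median 0.36), with Nhlh2 at 0.63 and Cntn2 at 0.54, and none passed the test. The median was 0.21 for 10 midbrain markers (Wnt1 0.90, Lmx1b 0.57), 0.17 for 12 mesenchyme and neural crest markers (Prrx1 0.66, Foxc2 -0.39), 0.17 for 9 macrophage markers (Csf1r 0.44, C1qa 0.38), 0.05 for 9 endothelium markers (Kdr 0.23, Tie1 -0.15) and -0.05 for 8 erythroid markers (Klf1 -0.17, Alas2 -0.13), again with 0 called. The median of 10 neural progenitor markers was 0.01 (Fabp7 0.49, Sox3 -0.44). Of the midbrain markers 8 were positive and 2 negative, with Pax5 at -0.25 and Fgf8 at -0.04. For some of the genes named here, other probe sets gave different values. They ran from 0.02 to 0.36 for Cntn2 and from -0.02 to 0.17 for Csf1r. For Prrx1 they ran from -0.15 to 1.0037. A single other probe set read -0.0095 for Lmx1b and -0.0052 for Sox3. Among 9 epithelial markers the median was 0.16. Epcam (1.33, limma adjusted p = 0.00368) and Cdh1 (0.77, limma adjusted p = 0.0166) were higher in the Ezh2 cko on the probe set used. The other Epcam probe set differed by 0.18. The Cdh1 call was lost without any 1 of 5 arrays (adjusted p up to 0.0905 in limma), while that of Epcam was kept. In bulk tissue fewer cells of a type and less RNA per cell cannot be told apart, and the part of cell content in the members' values was not tested.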

How the data were processed

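RNA of 3 control and 3 Ezh2 cko dorsal midbrain samples was measured on Affymetrix A430 arrays, 1 array per sample. The authors deposited 1 log2 signal for every probe set, made with RMA, per the submitters' processing notes; the version is not given. RMA makes the arrays' distributions alike, so a shift shared by most genes is not seen. The number of arrays limits the precision.

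All 45037 probe sets other than 64 array controls entered 1 linear model per probe set (limma 3.58.1, R 4.3.3), Ezh2 cko minus control, with Benjamini-Hochberg adjustment over all of them and a threshold of 0.05. Genes were named from the platform annotation (34945 probe sets with 1 symbol, 932 with several, 9160 with none). Outside the members a gene is represented by its brightest probe set. Named were all member probe sets, of each list the genes with the largest absolute difference (2 are given), those past the threshold, Kdm6a and Ezh2. Members and lists were chosen with earlier results of these data known, and the motif letters with the member windows in view. The fit was tested on simulated data. By the study, the samples of a group are separate midbrains from 2 litters. Promoter windows came from RefSeq (GRCm38.p6).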

Additional observations from a re-analysis of the deposited data

How the results depend on the processing

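Across 21 alternatives, 0 member probe sets were called in any, and the lowest adjusted p of a member was 0.414. Of 889 values, counts of called probe sets among them, 818 were scored the same. For a difference this meant the same direction and side of the threshold, for a count a similar size. Over all probe sets the count of 85 became 0 with the methods' Student test, 166 at an adjusted p under 0.1, 9 with the neuron marker mean and 3 with the proliferation list mean as a term, 4 without control replicate 1 and Ezh2 cko replicate 3 (chosen after seeing the data), and 21 to 46 leaving out 1 array. No label says that replicate numbers pair samples. Between arrays of the same number, deviations from the group means had correlations of 0.065, -0.203 and 0.063. With 3 arrays per group these values cannot decide whether samples are paired. With the replicate block 59 probe sets were called, 0 of them members, and Cdh1 lost its call (0.77, limma adjusted p = 0.0586). Some differences that had not passed the test changed sign, and the cause was not tested. With the neuron term these were Uhrf1 0.0354, Dnmt3a 0.0242, Tet1 1419896_at 0.221, Tet1 1429448_s_at -0.0866, Kdm6b 1456610_at -0.69, Kdm6a 0.14, Dppa3 0.16, Zbtb4 -0.12 and Idh1 -0.0941. With the proliferation term they were Uhrf1 0.0722, Dnmt1 1422946_a_at 0.0507, Tet3 0.0254, Tet1 1419896_at 0.187, Tet1 1429448_s_at -0.0760, Kdm6b 1456610_at -0.707, Kdm6a 0.0488, Dppa3 0.111, Zbtb4 -0.176 and Idh1 -0.0982. Without both arrays they were Dnmt3b 1418351_a_at 0.0167, Tet1 1419896_at 0.191, Kdm6b 1456610_at -0.463, Kdm6a 0.0939, Dppa3 0.0981, Zbtb4 -0.0503 and Idh1 -0.0321. Array weights gave 0.00016 for Dnmt3b 1418351_a_at and -0.0087 for Kdm6b 1456610_at. The mean of all probe sets gave 0.0652 for Dnmt3a and 0.0191 for Tet1, and Kdm6b without _s_at and _x_at sets was 0.0973. Leaving out 1 array, the range was -0.0849 to 2.83e-05 for Uhrf1, -0.452 to 0.0111 for Dnmt3a, -0.107 to 0.0884 for Uhrf1 1415811_at, -0.106 to 0.0388 for Dnmt3b 1418351_a_at, -0.26 to 0.16 for Tet1 1419896_at, -0.0460 to 0.207 for Tet1 1419897_at, -0.107 to 0.0271 for Dnmt1 1422946_a_at, -0.26 to 0.43 for Kdm6b 1456610_at, -0.281 to 0.0801 for Kdm6a, -0.224 to 0.0595 for Dppa3 and -0.00779 to 0.179 for Idh1. Epcam also lost its call in the Student test, Cdh1 in that test, with both terms, without both arrays and in 5 of the 6 fits that leave out 1 array, and Hspa1b was called with the mean of its probe sets (0.50, adjusted p = 0.0416).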
